A study of Homo sapiens with 30 samples.

Results

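Integrin β4 (ITGB4) was used to divide A375 cells, an established human melanoma line, into cells with and without the protein on their surface, and the polyadenylated RNA of the sorted cells was sequenced. The 6 libraries described here are the Parental negative and Parental positive groups, 3 libraries each, chosen by their titles from 30 libraries in 10 groups. Both groups came from the original population of the line, went through 0 rounds of migration and carry no engineered change, so the sort is the one labelled difference between them. Per the labels, cells were detached with trypsin, stained with a fluorescent antibody against ITGB4 and called positive above a gate set on unstained cells, on either of 2 sorters. The sources used here do not tie a sorter to a library. Each library carries a biological replicate number, but no label says that replicates were separate cultures. The p-values below therefore reflect how libraries of a group vary, pooled over the 10 groups unless stated otherwise. This may be technical variation. The rest of the series takes the same line through membranes with pores narrower than the cells, and asks, by its title, which differences are there at the outset and which are induced. The parental sort bears on those at the outset.

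Integrin β4 pairs with integrin α6 to form a receptor for laminins. In epithelial cells this receptor anchors the keratin network to the basement membrane at hemidesmosomes, through the linker protein plectin, and its long cytoplasmic tail also takes part in signalling downstream of growth factor receptors. Melanocytes do not build hemidesmosomes, and in melanoma the receptor is studied in relation to adhesion and invasion.

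Gene counts ran from 16403632 to 25289509 in the 6 libraries, with 24.07 to 26.53% of reads assigned to no gene. Negative replicate 1 stood apart from the other 5: it scored -84.42 on the first principal component of the 6 libraries, which held 58.3% of the variance, while the others lay between -15.89 and 46.81. Its mean log2 level of 44 S phase genes, in counts scaled to library size (CPM), was 4.87, against 6.16 to 6.47 in the others. It held 90.8 CPM of DDIT3, a factor induced by the integrated stress response, against 10.6 to 12.6 CPM. Results that rest on it are given with and without it below. The second component, with 17.7% of the variance, placed all 3 positive libraries below all 3 negative ones. Its scores were -23.63, -17.79 and -14.22 in the positive and 0.95, 8.14 and 46.55 in the negative libraries. Negative replicate 3 lay further from the other negatives than they did from the positives. Of 11 melanoma markers, 8 averaged over 1 CPM in the 6 libraries, led by SERPINE2 and CSPG4, and TYR, the pigment enzyme tyrosinase, was at 0 in all 6. PMEL and MLANA, a pair of melanosome proteins, were at 1.37 CPM or less, so the label melanoma is carried by SOX10, CSPG4, MCAM and PRAME and not by pigment genes. The summed markers of keratinocytes ran from 151.5 to 198 CPM in the negative and 163 to 233 CPM in the positive libraries. Most of this came from KRT10, at 67.3, 89.8 and 94.3 against 99.9, 105 and 72.9 CPM, and from PERP. PERP was at 74.6, 69.9 and 72.6 against 75.7, 90.0 and 65.5 CPM. KRT5 was at 0.394 CPM or less and TP63 at 0.234 CPM or less, and DSG3 and PKP1 were at 0 in all 6. Summed fibroblast markers were at 35.9 to 48.4 and 36.3 to 53.3 CPM, and endothelial markers at 10.9 to 14.0 and 11.4 to 26.2 CPM. Summed immune markers were at 42.7 to 80.3 and 56.5 to 88.7 CPM, mostly from CD68, a lysosomal protein, at 77.3, 42.5 and 33.95 against 82.3, 49.9 and 50.8 CPM, while CD3D, CD3E, MS4A1 and TYROBP were at 0 in all 6. The part of any of these in the results was not tested.

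**Figure D1:**
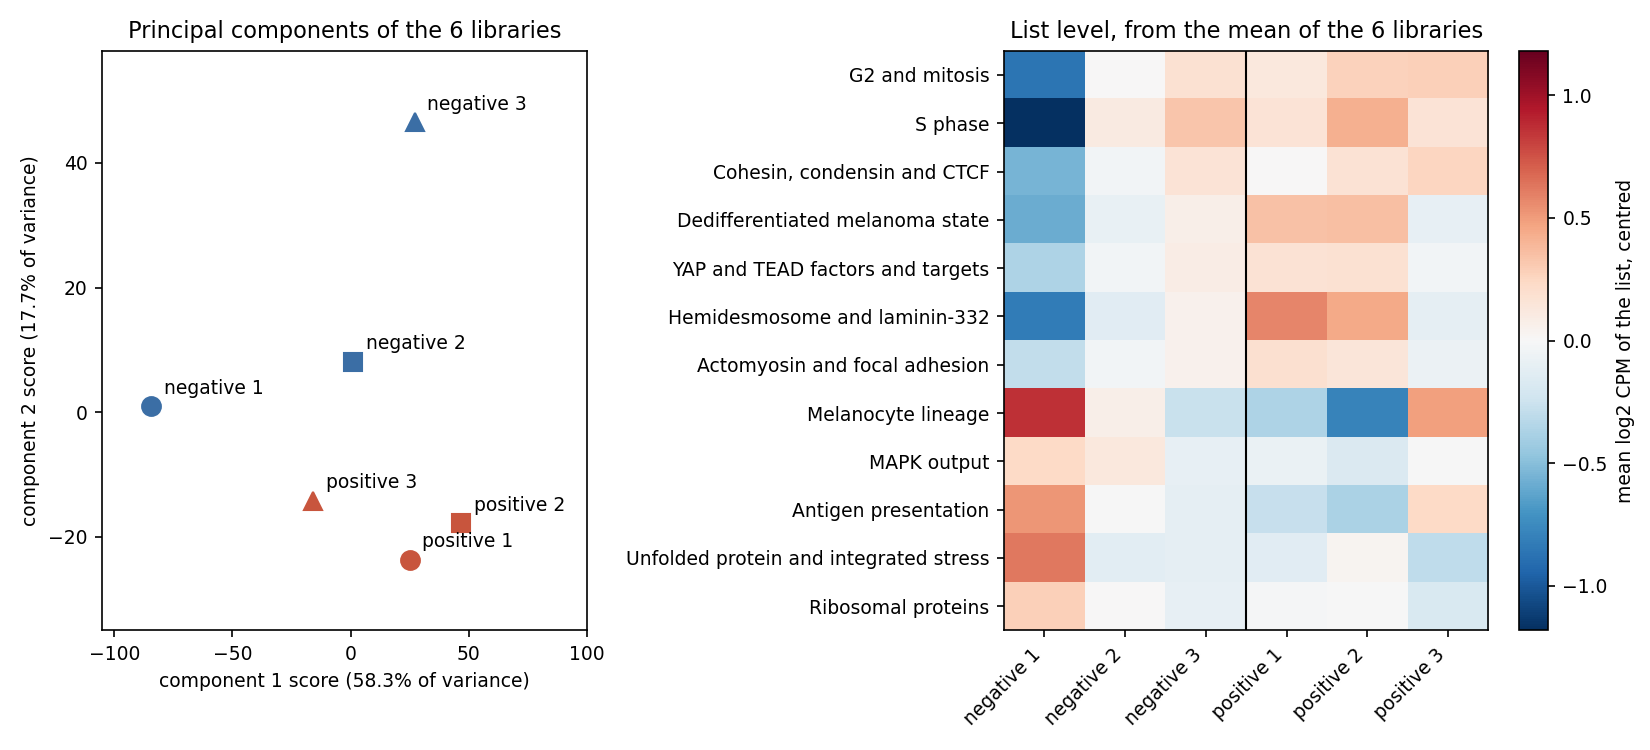
Left, scores of the 6 parental libraries on the first and second principal components of log2 CPM (percent of variance on each axis; blue, negative sort; red, positive sort; circle, square and triangle, replicates 1 to 3). Right, the mean log2 CPM of 12 gene lists in each library, less the mean of the 6 libraries. Negative replicate 1 lies at -84.42 on the first component and has the lowest level of the G2 and mitosis list and of the S phase list. On the second component the positive libraries lie below the negative ones, and negative replicate 3, at 46.55, lies far from the rest.

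ITGB4 mRNA itself was higher in each positive library than in each negative one, but its spread within the positive group was wide. In the 3 negative libraries it stood at 24.6, 33.7 and 25.1 CPM, and in the positive libraries at 168, 96.7 and 35.2 CPM. Positive replicate 3 lay just above negative replicate 2, so the groups did not overlap but nearly met. The means were 27.8 ± 5.13 and 100.1 ± 66.6 CPM (SD, n = 3 each), and the log2 fold change was 1.85 ± 0.87 (SE). The unadjusted edgeR p was 0.0436 and the adjusted p was 1, so ITGB4 did not pass the test across all genes, nor did it with DESeq2 (adjusted p 0.905). In these bulk libraries, fewer cells of a type and less RNA per cell cannot be told apart.

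Across 15381 tested genes, edgeR's quasi-likelihood test called 9 at an adjusted p below 0.05, which is 0.0585% of the genes. The positive sort was higher in 6 of them, SLCO1B3, PGM5, FOXP1, FBXL7, ANKRD30A and ZFPM2, and lower in 3, SOX11, TRO and EYA1. None of them is an integrin, a laminin or a hemidesmosome component. An unadjusted p below 0.05 was reached by 684 genes, against 769 that the test would give if no gene differed. DESeq2 called 77 genes, 0.501% of those with an adjusted p, of which 33 were higher and 44 lower in the positive sort, and they included all 9. The edgeR calls numbered 4 without negative replicate 1, 3 without negative replicate 2, 8 without negative replicate 3, 4 without positive replicate 1, 4 without positive replicate 2 and 18 without positive replicate 3. FBXL7, ZFPM2 and EYA1 were called in each of these 6 fits. A fit on the 6 parental libraries alone, which does not borrow its spread from the other groups, called 1 gene and 0 of these 9.

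**Figure D2:**
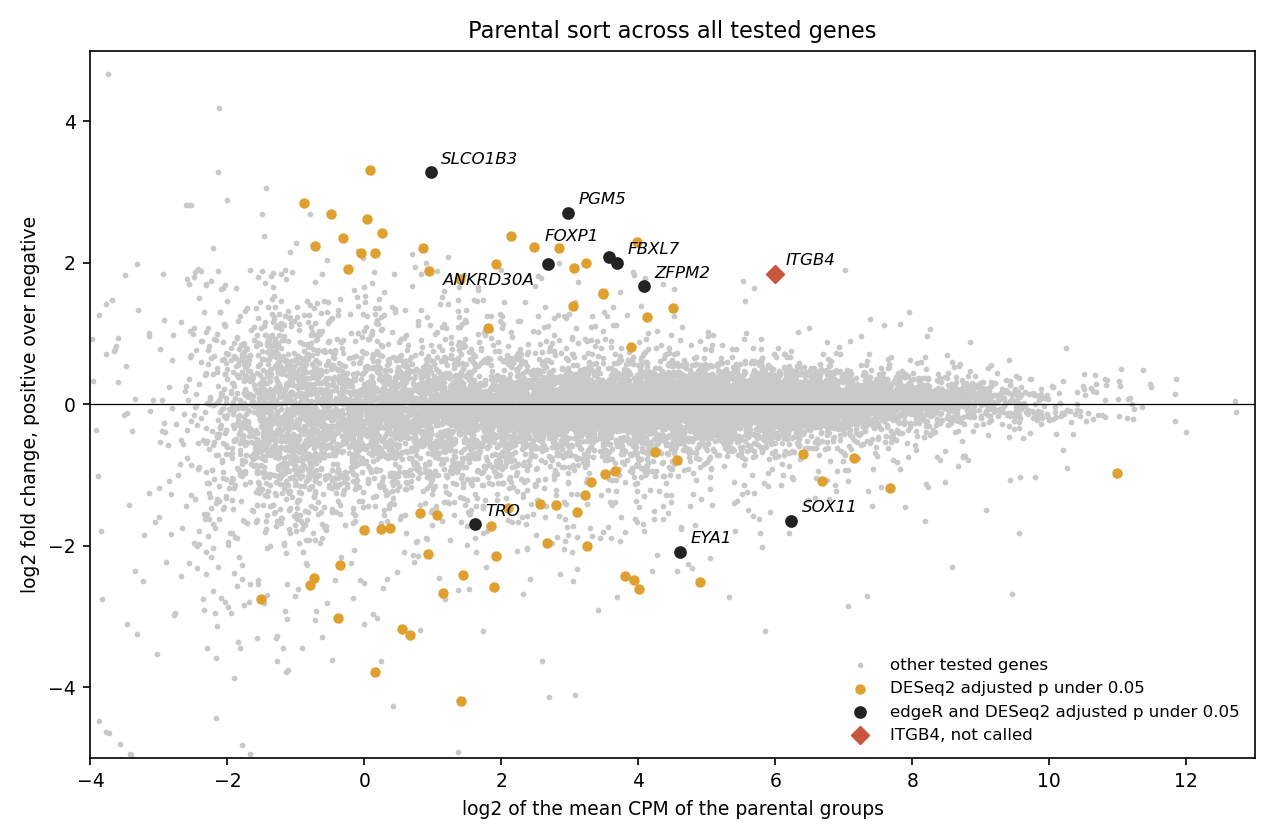
Log2 fold change between the parental sorts (positive over negative) against the log2 of the mean CPM, 1 point per tested gene. The 51 genes outside the axes are not drawn. The 9 genes called by edgeR and DESeq2 (black) include SLCO1B3 at 3.29 and EYA1 at -2.09, and ITGB4 (red diamond) lies at 1.85 without passing the adjusted test.

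FBXL7, FOXP1 and ZFPM2 rose from means of 4.54 to 8.07 CPM in the negative sort to means of 19.2 to 25.7 CPM in the positive one. FBXL7, the substrate-binding F-box subunit of an SCF ubiquitin ligase, stood at 5.203, 5.98 and 4.28 CPM in the negative libraries and at 20.5, 14.9 and 26.6 CPM in the positive ones. The lowest positive library was above the highest negative one, and here positive replicate 3 was the highest of the 6. FBXL7 rose by 2.00 ± 0.28 on the log2 scale, with an edgeR adjusted p of 0.00184 (0.00262 to 0.0239 when 1 library was left out). FOXP1, a forkhead transcription factor, was at 5.73, 3.44 and 4.45 CPM in the negative and 22.2, 19.1 and 16.3 CPM in the positive libraries. All 3 positive libraries lay well above the negative ones. FOXP1 rose by 2.08 ± 0.32 on the log2 scale (edgeR adjusted p 0.00333), and lost its call in 1 of the 6 fits, at 0.0854 without negative replicate 2. ZFPM2, a zinc finger cofactor of GATA factors, was at 7.31, 7.83 and 9.07 CPM against 29.3, 24.3 and 23.7 CPM, with little spread in either group. ZFPM2 rose by 1.67 ± 0.23 (edgeR adjusted p 0.00184, and 0.00361 to 0.02096 when 1 library was left out). Its antisense partner ZFPM2-AS1 went the other way, at 7.37, 5.61 and 4.79 CPM in the negative and 3.57, 2.38 and 3.71 CPM in the positive libraries. No source used here gives the strand setting of the counts, so reads of this pair may not be separable.

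Among the 10 genes made up of ITGB4 and the 9 called, 4 matched a RefSeq table of promoters on GRCh38.p14 of 300 bases around each gene's start: FBXL7, FOXP1, SLCO1B3 and TRO. ITGB4, PGM5, ANKRD30A, ZFPM2, SOX11 and EYA1 were not matched. The stretches of the 3 higher genes are shown so that the base composition and the motif search can be read on them. FBXL7 is given from the first of 2 entries at chr5:15499930-15500229 on the + strand, FOXP1 from the first of 6 entries at chr3:71583679-71583978 on the - strand, and SLCO1B3 at chr12:20810455-20810754 on the + strand, each written 5′ to 3′ in the direction of the gene with motif matches in capitals.
FBXL7: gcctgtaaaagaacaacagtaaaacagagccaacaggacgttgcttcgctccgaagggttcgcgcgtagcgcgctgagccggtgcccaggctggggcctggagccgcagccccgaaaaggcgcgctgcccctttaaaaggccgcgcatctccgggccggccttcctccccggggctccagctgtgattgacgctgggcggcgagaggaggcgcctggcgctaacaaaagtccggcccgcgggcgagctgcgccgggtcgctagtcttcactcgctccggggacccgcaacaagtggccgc
FOXP1: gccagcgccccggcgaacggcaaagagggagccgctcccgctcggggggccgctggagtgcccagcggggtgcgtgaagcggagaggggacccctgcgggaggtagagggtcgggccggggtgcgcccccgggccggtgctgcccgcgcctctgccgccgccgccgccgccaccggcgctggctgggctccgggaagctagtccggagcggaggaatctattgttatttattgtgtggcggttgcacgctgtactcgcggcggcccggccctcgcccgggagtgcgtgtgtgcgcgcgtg
SLCO1B3: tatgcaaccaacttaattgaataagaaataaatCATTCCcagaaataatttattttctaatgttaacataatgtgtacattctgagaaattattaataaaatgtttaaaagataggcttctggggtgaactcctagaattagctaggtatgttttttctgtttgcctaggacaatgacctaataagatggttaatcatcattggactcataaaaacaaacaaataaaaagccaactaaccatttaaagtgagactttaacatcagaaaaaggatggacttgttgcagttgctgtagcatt
The FBXL7 and FOXP1 stretches were 67.7 and 75% G and C, against a median of 58.7% over 35116 promoters in the table, while the SLCO1B3 stretch was at 30% and that of TRO at 51%. Searched on both strands were the AP-1 motif TGANTCA, found in 7.71% of all promoters of this length, the TEAD motif GGAATG in 14%, the E-box CACGTG in 7.26% and the forkhead motif TGTTTAC in 3.42%. None of these strings contains another. The one match in the 4 promoters was a TEAD motif on the opposite strand of SLCO1B3, at bases 34 to 39. A match of this kind describes letters and not a bound site.

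EYA1 and SOX11 were the abundant genes among the lower calls. EYA1, a phosphatase and transcriptional coactivator of homeobox factors, was at 53.8, 35.98 and 28.5 CPM in the negative libraries and at 8.16, 7.096 and 12.6 CPM in the positive ones. The negative libraries all held more than double the level of any positive library, and negative replicate 1 was the highest. EYA1 fell by 2.09 on the log2 scale (SE 0.30), with an edgeR adjusted p of 0.00184, and the log2 change was -1.79 without negative replicate 1 (adjusted p 0.02096). SOX11, a transcription factor of neural and neural crest development, was at 128, 129 and 83.9 CPM in the negative and 31.7, 24.8 and 52.5 CPM in the positive libraries. Positive replicate 3 was the positive library nearest to the negatives, and no library crossed over. SOX11 fell by 1.64 (SE 0.29; edgeR adjusted p 0.0189), and its adjusted p ran from 0.006196 to 0.226 with 1 library left out, below 0.05 without negative replicate 3 and without positive replicate 3. TRO, or trophinin, a membrane protein first described in the attachment of embryo to uterus, was at 6.78, 4.07 and 3.21 CPM in the negative libraries and at 1.37, 1.48 and 1.48 CPM in the positive ones. The 3 positive libraries were nearly equal, and the negative ones spread from just above 3 CPM upward. TRO fell by 1.69 (SE 0.31; edgeR adjusted p 0.0262), and kept its call in 1 of the 6 fits, without negative replicate 3, with a range from 0.0211 to 0.291.

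SLCO1B3, PGM5 and ANKRD30A were low in the negative sort and several fold higher in the positive one. SLCO1B3, an organic anion transporter of the liver, had 8, 2 and 9 counts in the negative libraries and 100, 85 and 60 counts in the positive ones, or 0.468, 0.106 and 0.507 CPM against 3.79, 4.501 and 2.34 CPM. It was close to the limit of detection in the negative sort, and the groups were far apart. SLCO1B3 rose by 3.29 ± 0.57 on the log2 scale (edgeR adjusted p 0.0206), the largest change of the 9. PGM5, a member of the phosphoglucomutase family that sits at adhesion sites and lacks the enzyme activity, was at 1.403, 2.38 and 2.42 CPM in the negative and 16.1, 15.5 and 9.21 CPM in the positive libraries. Positive replicate 3 was again the lowest of its group, and no library overlapped. PGM5 rose by 2.71 ± 0.51 (edgeR adjusted p 0.0357). The near-identical copy PGM5P2 had 18, 30 and 55 counts in the negative and 140, 73 and 44 in the positive libraries, so the split of reads between the copies is uncertain. ANKRD30A, known as a differentiation antigen of breast epithelium, was at 1.29, 2.96 and 3.49 CPM in the negative and 10.7, 11.4 and 8.54 CPM in the positive libraries. Negative replicate 1 was the lowest of the 6, and the groups did not overlap. ANKRD30A rose by 1.98 ± 0.34 (edgeR adjusted p 0.0189), or by 1.66 without negative replicate 1 (adjusted p 0.163). Its relatives ANKRD30B and ANKRD30BL share sequence with it, and reads may be divided among them. With 1 library left out, SLCO1B3 and PGM5 each kept their call in 1 of 6 fits, that without positive replicate 3, and ANKRD30A in 2, those without negative replicate 3 and without positive replicate 3. Their edgeR adjusted p ran from 0.0147 to 0.183, from 0.0208 to 0.291 and from 0.0147 to 0.163.

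**Figure D3:**
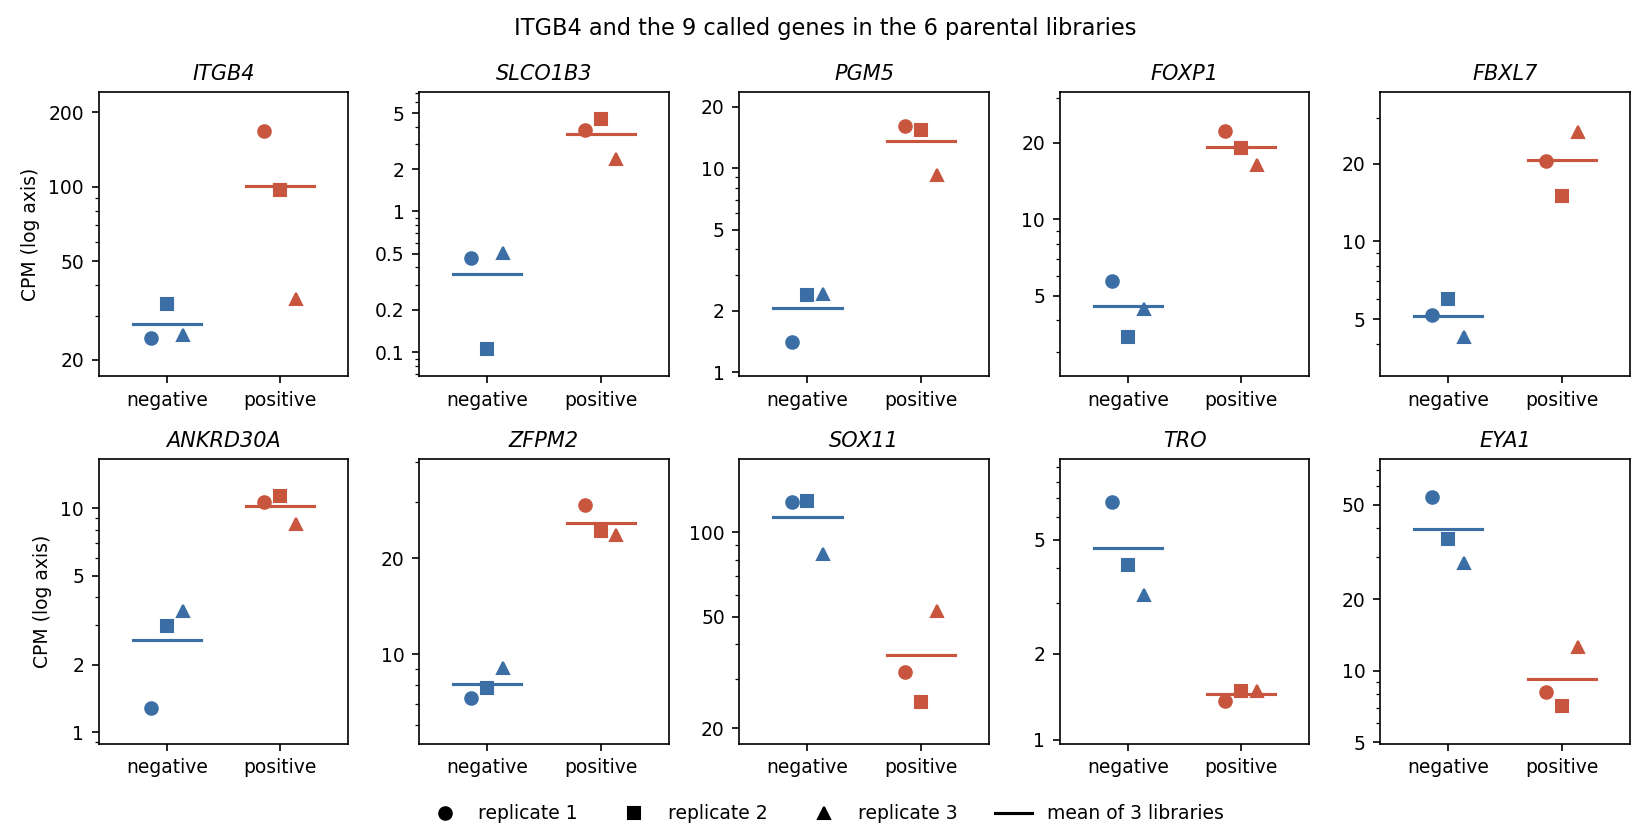
Level of ITGB4 and of the 9 called genes in each parental library, in CPM on a log axis, with the mean of 3 libraries as a line (blue, negative sort; red, positive sort; circle, square and triangle, replicates 1 to 3). The groups do not overlap in any of the 10 panels, and ITGB4 in positive replicate 3 (35.2 CPM) lies nearest to the negative sort.

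A further 245 genes reached an unadjusted p below 0.05 with at least 5 CPM in 1 group and no overlap of the groups, without passing the adjusted edgeR test, 107 higher and 138 lower in the positive sort. For comparison, 4.47% of all genes were higher in every positive library than in every negative one and 4.96% lower. Among the 245, the 10 with the highest fold changes held 3 members of the VCX family, X-linked genes mostly active in the testis. VCX2 was at 5.32, 5.87 and 4.84 CPM in the negative libraries and at 27.5, 26.8 and 24.3 CPM in the positive ones. Both groups were tight, and a fit on the parental libraries alone called this gene and no other (edgeR adjusted p 0.02605), whereas the fit on all groups gave 0.1397. VCX3A was at 4.74, 3.65 and 2.98 against 18.2, 14.4 and 12.8 CPM (edgeR adjusted p 0.0578), VCX at 2.105, 3.44 and 2.14 against 13.2, 10.8 and 11.6 CPM, and VCX3B at 15.2, 9.95 and 8.56 against 33.5, 28.3 and 42.6 CPM. The 4 genes are near-identical copies, so reads may have been divided among them, and they count as 1 signal. The other higher genes were RAC2, LINC01468, SERPINB7, SH3GL2, LAMA1, KRT81 and NRG1, with edgeR adjusted p of 0.0727 to 0.741. LAMA1, the laminin α1 chain of basement membranes, was at 2.98, 4.13 and 3.32 CPM in the negative and 13.96, 8.79 and 16.8 CPM in the positive libraries, with positive replicate 3 the highest. NRG1, the neuregulin ligand of ERBB receptors, was at 1.29, 7.302 and 10.9 against 30.2, 29.4 and 11.5 CPM, and KRT81, a hair keratin, at 34.4, 61.6 and 68.5 against 265, 268 and 77.99 CPM. In both, positive replicate 3 sat beside the highest negative library, as it did for ITGB4.

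The 10 with the lowest fold changes among the 245 were SOX8, GRM8, XYLT1, ZNF521, SORCS1, VAT1L, TESC, MGP, ATP10B and GRB10, at log2 fold changes of -4.19 to -2.26. Negative replicate 1 was the highest library in all 10. SOX8, a SOXE factor of the neural crest, was at 12.6, 1.43 and 1.24 CPM in the negative and 0.228, 0.05296 and 0.507 CPM in the positive libraries, and its log2 fold change went from -4.19 ± 1.02 to -2.27 without that library. XYLT1, which starts glycosaminoglycan chains on proteoglycans, was at 42.5, 23.4 and 17.1 against 4.401, 2.17 and 6.87 CPM. Here the other negative libraries were also far above the positive ones, at -2.62 ± 0.54 on the log2 scale with all libraries (edgeR adjusted p 0.0578) and -2.17 without negative replicate 1. SORCS1, a sorting receptor of the VPS10 family, was at 85.3, 40.95 and 26.4 against 5.995, 3.34 and 17.3 CPM, and ZNF521, a zinc finger factor, at 10.1, 4.97 and 4.05 against 0.911, 0.9003 and 1.37 CPM. The groups were separate in both, and the edgeR adjusted p was 0.133 for each. Without negative replicate 1 the log2 fold change went from -2.51 ± 0.61 to -1.92 in SORCS1 and from -2.58 ± 0.63 to -2.08 in ZNF521. Neither was called by edgeR in that fit.

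Of the 10 highest and 10 lowest genes above, DESeq2 called all but SERPINB7, KRT81, NRG1, GRM8, MGP, ATP10B and GRB10. Several further genes called by DESeq2 alone were chosen here after their values were seen. PKP2, the desmosomal plaque protein plakophilin, was at 3.86, 4.87 and 8.22 CPM in the negative and 18.5, 19.4 and 11.98 CPM in the positive libraries, a log2 difference of 1.56 ± 0.35 (DESeq2 adjusted p 0.00728, edgeR 0.112). ARNTL2, a partner of the circadian factor CLOCK, was at 9.65, 11.3 and 11.2 against 19.96, 20.02 and 16.6 CPM (DESeq2 adjusted p 0.000215, edgeR 0.0561). MFSD12, a transporter of melanosomes and lysosomes, was the lower one at 349, 266 and 242 against 117, 107 and 151 CPM (DESeq2 adjusted p 0.000558, edgeR 0.0578). GNAS, which encodes the stimulatory G protein subunit, was among the most abundant at 3615, 2716 and 1783 against 1194, 1013 and 1914 CPM, with positive replicate 3 above negative replicate 3 (DESeq2 adjusted p 0.0311, edgeR 0.241). Of the 77 genes, 75 had groups that did not overlap, against 4.47% of all tested genes higher and 4.96% lower without overlap. The 77 were called on these same libraries, so their separation follows from the choice and adds no support.

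The hemidesmosome list held 10 tested genes with ITGB4, of which 0 passed the edgeR or the DESeq2 test and 1, ITGB4, had an unadjusted edgeR p below 0.05, and 8 of 10 had a log2 fold change above 0, against 48.3% of all tested genes. Its median was 0.40, and 0.18 without negative replicate 1, while the median of all genes was -0.01 and 0.02. ITGA6, the partner chain of ITGB4, was abundant and nearly level at 259.6, 361 and 364 CPM in the negative and 316, 321 and 418 CPM in the positive libraries, a log2 fold change of 0.10 ± 0.27, which was -0.04 without negative replicate 1. The groups overlapped. PLEC, the linker plectin, was at 1090.2, 1475 and 1730.4 against 1984, 1655 and 1413 CPM, and CD151, a tetraspanin that binds the receptor, at 151, 186 and 167 against 211, 193 and 182 CPM. LAMB3, a chain of the epidermal laminin to which the receptor binds, was at 17.2, 21.3 and 21.6 against 36.01, 37.2 and 19.7 CPM. In each of these 3 genes, at least 1 positive library lay within the negative range. COL17A1, the transmembrane collagen of hemidesmosomes, was near the limit of detection at 0, 0.265 and 0.563 against 1.48, 1.06 and 0.273 CPM, and KRT14, a basal keratin, was at 1.11, 10.2 and 17.5 against 15.3, 18.9 and 12.99 CPM with negative replicate 1 far below the rest. DST, the linker dystonin, was at 73.4, 78.4 and 69.9 against 73.3, 50.9 and 65.9 CPM, and LAMA3 at 5.203, 2.06 and 1.63 against 2.47, 2.701 and 1.95 CPM. The latter had a log2 fold change of -0.32 ± 0.54, and of 0.36 without negative replicate 1.

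Of the other adhesion and matrix lists, edgeR and DESeq2 called PGM5 in the actomyosin and focal adhesion list, and DESeq2 alone called LAMA1 in the basement membrane list (adjusted p 0.0161, edgeR 0.168). The lists held 1 to 4 genes each at an unadjusted edgeR p below 0.05. In the actomyosin list 38 of 48 genes had a fold change above 0 with a median of 0.14 (32 of 48 and 0.05 without negative replicate 1). Of 19 integrin subunits, 10 were above 0, with a median of 0.05 (0.09 without that library). ITGB7 was at 0.292, 1.32 and 3.04 against 5.08, 7.096 and 2.15 CPM, and ITGA9 at 68.3, 16.5 and 9.85 against 5.43, 2.75 and 13.3 CPM, with negative replicate 1 far above the rest in the latter. The basement membrane list had another sign without that library: 9 of 22 genes were above 0 with a median of -0.16, and 18 of 22 with a median of 0.36 without it, against 53.5% of all genes above 0 in that fit. FREM1, a protein of the epidermal basement membrane, was at 10.8, 13.3 and 8.896 against 3.11, 1.801 and 4.02 CPM, lower in all 3 positive libraries (edgeR adjusted p 0.5201). Interstitial collagens and matrix genes had 10 of 25 above 0 and a median of -0.27, or 0.06 without the library, and matrix proteases a median of -0.13 and 0.09.

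Cell cycle genes were almost all above 0. The medians of the S phase and the G2 and mitosis lists both fell without the library that stood apart, the S phase median nearly to 0. Of the S phase genes, which copy DNA, 43 of 44 had a log2 fold change above 0 with a median of 0.37, and 30 of 44 with a median of 0.04 without negative replicate 1. Of them 0 passed the edgeR or the DESeq2 test, 0 had an unadjusted p below 0.05, and 0 were higher in all 3 positive libraries than in all 3 negative ones. Of the G2 and mitosis genes, 53 of 54 were above 0 with a median of 0.39, and 50 of 54 with a median of 0.16 without that library. Here 11 of 54 genes, or 20.4%, had no overlap between the groups, against 4.47% of all genes in that direction, while 0 were called by edgeR or DESeq2 and 2 had an unadjusted edgeR p below 0.05. CKAP2L, a spindle protein, was at 36.01, 52.2 and 60.02 CPM in the negative and 62.1, 70.5 and 81.3 CPM in the positive libraries, a difference of 0.53 ± 0.20 on the log2 scale (edgeR adjusted p 0.753). NEK2, a centrosome kinase, was at 37.6, 46.1 and 55.7 against 58.1, 65.2 and 72.5 CPM. Negative replicate 1 was the lowest library in both genes. The cohesin and condensin list (19 of 21, median 0.24), the DNA damage list (28 of 32, median 0.23) and the nuclear envelope list (16 of 21, median 0.16) had medians above 0 as well, which were 0.08, 0.03 and 0.07 without negative replicate 1. Heterochromatin and Polycomb genes had a median of 0.07, and histone genes one of 0.13, which were 0.05 and 0.01 without it.

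Stress and translation genes were mostly below 0 with all 6 libraries and centred on 0 without negative replicate 1. In the unfolded protein and integrated stress list, 3 of 31 genes were above 0 with a median of -0.23, and 15 of 31 without that library. DDIT3 was at 90.8, 11.7 and 10.98 CPM in the negative and 10.9, 12.6 and 10.6 CPM in the positive libraries, so a single library set its fold change. Ribosomal protein genes had 3 of 65 above 0 with a median of -0.13, and 29 of 65 without it. For antigen presentation the numbers were 8 of 25 and -0.16, and 13 of 25 without it. HLA-DRA, a class II chain, was at 422, 193 and 183 against 92.8, 98.1 and 273 CPM, high in negative replicate 1 and positive replicate 3. Interferon response genes had 22 of 34 above 0 with a median of 0.11, and 29 of 34 with a median of 0.17 without that library, with IFI44 at 11.3, 12.2 and 14.7 against 20.9, 26.1 and 16.2 CPM. The hypoxia, cholesterol, respiratory chain, immediate early, p53 and NF-kB lists had medians between 0.00 and 0.11, and between -0.02 and 0.23 without that library, where the NF-kB list had the highest. They held 0 calls by edgeR or DESeq2, with 0 to 2 genes in each at an unadjusted edgeR p below 0.05.

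The melanocyte lineage list lay below 0 and the dedifferentiated list above it, and only the latter kept its median when negative replicate 1 was left out. Melanocyte lineage genes were above 0 in 5 of 19, with a median of -0.30, and in 11 of 19 with a median of 0.02 without that library. MITF, the lineage factor that drives pigment genes, was above the negative libraries in all 3 positive ones, at 44.2, 42.1 and 44.03 against 52.1, 57.1 and 64.9 CPM, a log2 difference of 0.42 ± 0.21 that did not pass the test (edgeR adjusted p 1). SOX10 was at 1369, 764 and 594 against 593, 441 and 935 CPM, with positive replicate 3 above the lower 2 negative libraries. Dedifferentiated state genes were above 0 in 29 of 37, with a median of 0.23, and in 31 of 37 with a median of 0.25 without it. CAV2, a caveola protein of that list, was at 15.4, 21.7 and 21.7 against 36.01, 44.2 and 24.7 CPM, with no overlap (edgeR adjusted p 0.7303), and AJUBA, a LIM protein of cell junctions, at 18.9, 56.6 and 83.2 against 125, 144 and 53.5 CPM, with positive replicate 3 inside the negative range. YAP and TEAD targets had 23 of 34 above 0 and a median of 0.15. In the list of mesenchymal transition factors and cadherins, 8 of 18 were above 0 with a median of -0.06, and 10 of 18 with a median of 0.11 without that library. Its transcription factors SNAI2 and TWIST1 were called by DESeq2 and not by edgeR. SNAI2 was at 5.67, 1.48 and 0.788 against 0.152, 0.05296 and 0.624 CPM and TWIST1 at 39.1, 28.9 and 22.2 against 18.3, 16.4 and 17.4 CPM, both without overlap, with edgeR adjusted p of 0.133 and 0.118 and DESeq2 adjusted p of 0.0113 and 0.00646. Their log2 fold changes went from -3.18 ± 0.77 to -1.97 and from -0.79 ± 0.18 to -0.55 without negative replicate 1, each with an edgeR adjusted p of 1 there. CDH6, a cadherin, was at 0.643, 0.476 and 0.676 against 2.01, 3.55 and 2.38 CPM. Lists around the called genes had medians near or below 0: the neural crest and SOX list with SOX11 had a median of -0.21, the list of EYA, DACH and partner homeobox genes with EYA1 one of 0.01, and the forkhead P and GATA cofactor list with FOXP1 and ZFPM2 one of -0.04. Without negative replicate 1 these medians were -0.03, 0.03 and -0.06.

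Signalling lists held 0 calls by edgeR or DESeq2, with 3 or 4 genes in each of 5 lists at an unadjusted edgeR p below 0.05. The MAPK output list had a median of -0.27, and of -0.04 without negative replicate 1. SPRY4, a feedback inhibitor of that pathway, was at 857, 313 and 159.9 CPM in the negative and 118, 79.9 and 225 CPM in the positive libraries, high in negative replicate 1, while EPHA2 was at 177, 367 and 423 against 664, 723 and 387 CPM. WNT pathway genes had 10 of 29 above 0 with a median of -0.22, and -0.13 without that library. TGF-β ligands, receptors and targets had 8 of 27 above 0 with a median of -0.12, and -0.11 without it. Their ligands went different ways, with TGFB1 at 142, 139 and 117 against 202, 169 and 176 CPM and TGFB3 at 5.26, 3.07 and 3.49 against 1.29, 1.85 and 2.497 CPM. Among ERBB receptors and their ligands, 6 of 13 were above 0 with a median of -0.19, and 8 of 13 with a median of 0.28 without negative replicate 1, so the sign of the median turned with that library. HBEGF was at 5.67, 8.62 and 9.35 against 15.03, 18.7 and 11.2 CPM and TGFA at 517, 424 and 346 against 243, 227 and 277 CPM. Neither pair of groups overlapped, and the edgeR adjusted p was 0.645 for HBEGF and 1 for TGFA. Eph receptors and guidance genes had a median of -0.08 (-0.12 without that library), with EPHA3 at 155, 83.4 and 72.6 against 45.8, 37.5 and 66.1 CPM.

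Cancer-testis antigens, genes silent in most adult tissues outside the testis, had 15 of 22 above 0 with a median of 0.12, and 13 of 22 without negative replicate 1. The list held called genes in both directions, ANKRD30A and TRO, which are described above from breast epithelium and from embryo attachment and not from the testis. Of its 22 tested members, 7 were higher in every positive library than in every negative one, or 31.8%, against 4.47% of all genes, and 1 was lower. The list was chosen with earlier results of these data known and includes called genes, so this share is no test of the list. The 7, all but SPANXB1 and ANKRD30A named after their values were seen, also took in MAGEA1, MAGEA10, MAGEC1, GAGE1 and PAGE1. SPANXB1, a sperm protein gene, had 4, 3 and 3 counts in the negative libraries and 70, 44 and 20 in the positive ones. Its log2 fold change of 3.32 ± 0.66 missed the threshold (edgeR adjusted p 0.0561, DESeq2 0.000904).

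**Figure D4:**
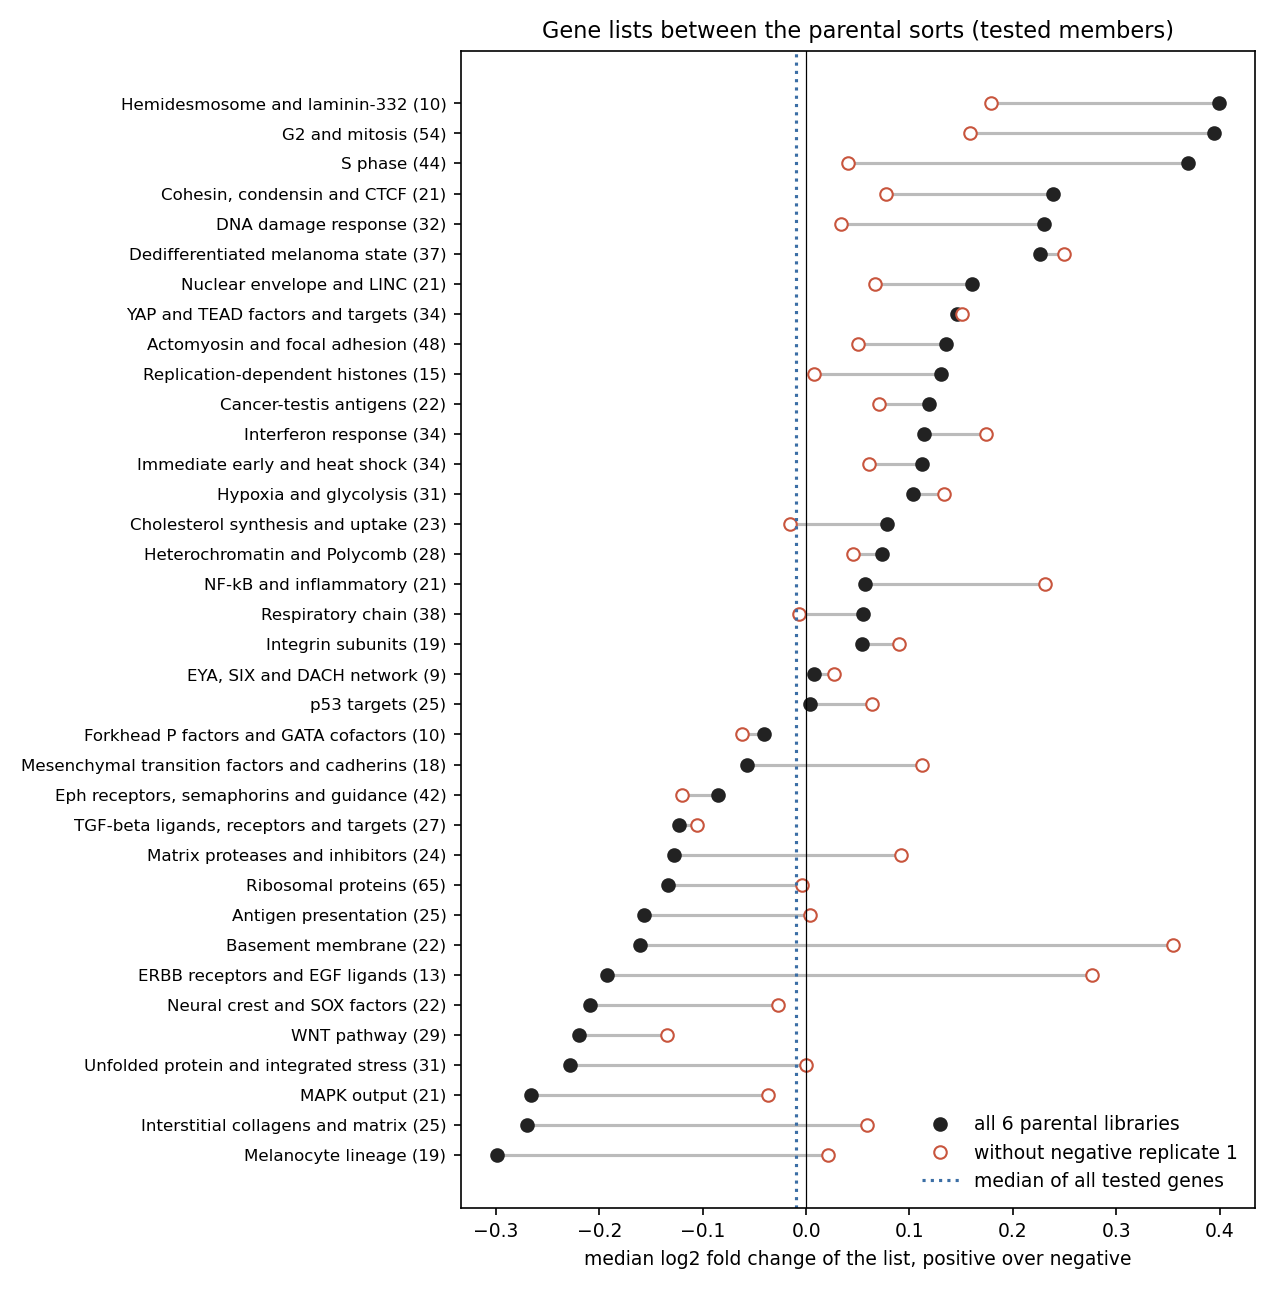
Median log2 fold change between the parental sorts (positive over negative) of 36 gene lists, number of tested members in brackets, with all 6 libraries (black) and without negative replicate 1 (open red). The dotted line is the median of all tested genes. Medians of the S phase list go from 0.37 to 0.04 and of the basement membrane list from -0.16 to 0.36, while the dedifferentiated list stays near 0.23 and 0.25.

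The same sort was made in cells that had failed to cross the membrane in 10 rounds (Top 10) and in cells that had crossed in 10 (Bottom 10), and these libraries share none with the parental groups. All 9 called genes had the parental sign in the Top 10 sort and 8 of 9 in the Bottom 10 sort, where TRO was at 0.02 ± 0.30. Of the 77 genes called by DESeq2, 72 had the parental sign in the Top 10 sort, or 93.5%, against 56.2% of all tested genes. In the Bottom 10 sort 62 of the 77 did, or 80.5%, against 53.6%. SLCO1B3 had a log2 fold change of 4.55 ± 1.26 in the Top 10 and 1.89 ± 0.66 in the Bottom 10 sort, PGM5 of 3.04 ± 0.95 and 1.61 ± 0.49, and FBXL7 of 1.44 ± 0.29 and 0.07 ± 0.27. SOX11 was at -0.38 ± 0.28 and -1.59 ± 0.29, EYA1 at -0.55 ± 0.29 and -0.95 ± 0.30, and ITGB4 at 1.97 ± 0.88 and 1.41 ± 0.85. ITGB4 averaged 7.38 and 28.9 CPM in the Top 10 negative and positive groups, against 27.8 CPM in Parental negative. In the Bottom 10 negative and positive groups it averaged 49.0 and 130 CPM. Levels behind the largest estimates were near the limit of detection. SLCO1B3 averaged 0 and 0.136 CPM in the Top 10 negative and positive groups, and 0.125 and 0.487 CPM in the Bottom 10 ones. PGM5 averaged 0.0314 and 0.301 CPM in the Top 10 groups, and 4.12 and 12.7 CPM in the Bottom 10 ones. The size of the estimates differed from sort to sort, and neither ITGB4 nor any of the 9 called genes passed the adjusted edgeR test in either. The test called 2 genes in the Top 10 sort, 0.013% of those tested, and named here after their values were seen: BTBD11, at 3.57 ± 0.56, and PKP2, at 2.18 ± 0.38. In the parental sort these were at 1.88 ± 0.44 and 1.56 ± 0.35, with DESeq2 adjusted p of 0.00716 and 0.00728. The edgeR test called 0%, or 0 genes, in the Bottom 10 sort, where 549 reached an unadjusted p below 0.05 and DESeq2 called 8.

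A test of the difference between sorts, which uses the parental libraries again, called 0 genes with edgeR for Top 10 against parental (126 genes at an unadjusted p below 0.05) and 0 for Bottom 10 against parental (463 genes). DESeq2 called 1 gene in the former, MAGEA1, and 3 in the latter, FBXL7, ZFPM2 and LINC01419. MAGEA1, a cancer-testis antigen, was at 9.35, 18.6 and 19.6 CPM in the negative and 35.4, 42.4 and 23.8 CPM in the positive parental libraries. The log2 fold change in Bottom 10 less that in the parental sort was -1.94 ± 0.40 for FBXL7 and -1.51 ± 0.32 for ZFPM2 (DESeq2 adjusted p 0.01504 for each). Both genes had been singled out by their parental difference, so this comparison is not independent of the choice.

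Cells sorted from the parental population and then taken across the membrane, with 4 rounds after the negative and 5 after the positive sort, differ in rounds as well as in sort. Between them edgeR called 0%, or 0 genes (565 at an unadjusted p below 0.05), and DESeq2 called 0. A test of this difference against that of the parental sort gave 0 edgeR calls (555 genes at an unadjusted p below 0.05) and 6 by DESeq2. Of the 9 genes 8 had the parental sign, and of the 77 genes 55 did, or 71.4%, against 48.4% of all genes. SOX11 was at -1.24 ± 0.29 and the other 8 called genes between -0.31 ± 0.30 (EYA1) and 0.34. ITGB4 was at 0.52 ± 0.84, with means of 135 ± 162 CPM after the negative and 194 ± 149 CPM after the positive sort (SD, n = 3 each). In all 9 called genes, mean levels after migration lay nearer to Parental positive than to Parental negative whichever sort the cells had come from. FOXP1 was at 4.54 ± 1.15 CPM in Parental negative, 19.2 ± 2.96 in Parental positive, 25.6 ± 8.42 in the negative sort after 4 rounds and 26.7 ± 2.604 CPM in the positive sort after 5 (SD, n = 3 each). EYA1 was at 39.4 ± 12.99, 9.27 ± 2.899, 7.04 ± 1.68 and 5.66 ± 1.52 CPM, and ANKRD30A at 2.58 ± 1.15, 10.2 ± 1.48, 12.7 ± 1.41 and 12.9 ± 2.05 CPM, in the same order. SOX11 was at 28.3 ± 10.96 and 11.96 ± 2.21 CPM after the negative and the positive sort, against 36.3 ± 14.4 CPM in Parental positive. The libraries of the migrated sorts did not overlap in this gene, without an edgeR call. Cells that failed to cross in 10 rounds had levels of FOXP1 and EYA1 nearer to Parental negative. FOXP1 was at 1.12 ± 0.1602 and 2.23 ± 0.621 CPM, EYA1 at 59.1 ± 3.04 and 40.5 ± 11.5 CPM in the Top 10 negative and positive groups. TRO, at 3.01 ± 0.569 and 2.17 ± 0.383 CPM there, lay between 4.69 ± 1.86 in Parental negative and 1.44 ± 0.0674 CPM in Parental positive. Cells that crossed in 10 rounds did not follow in every gene, since ANKRD30A was at 1.18 ± 0.159 and 1.297 ± 0.181 CPM there, and SOX11 at 80.6 ± 6.81 and 26.7 ± 4.41 CPM. These are levels side by side, with no test, since the genes were chosen on the Parental negative and positive libraries to which they are set.

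**Figure D5:**
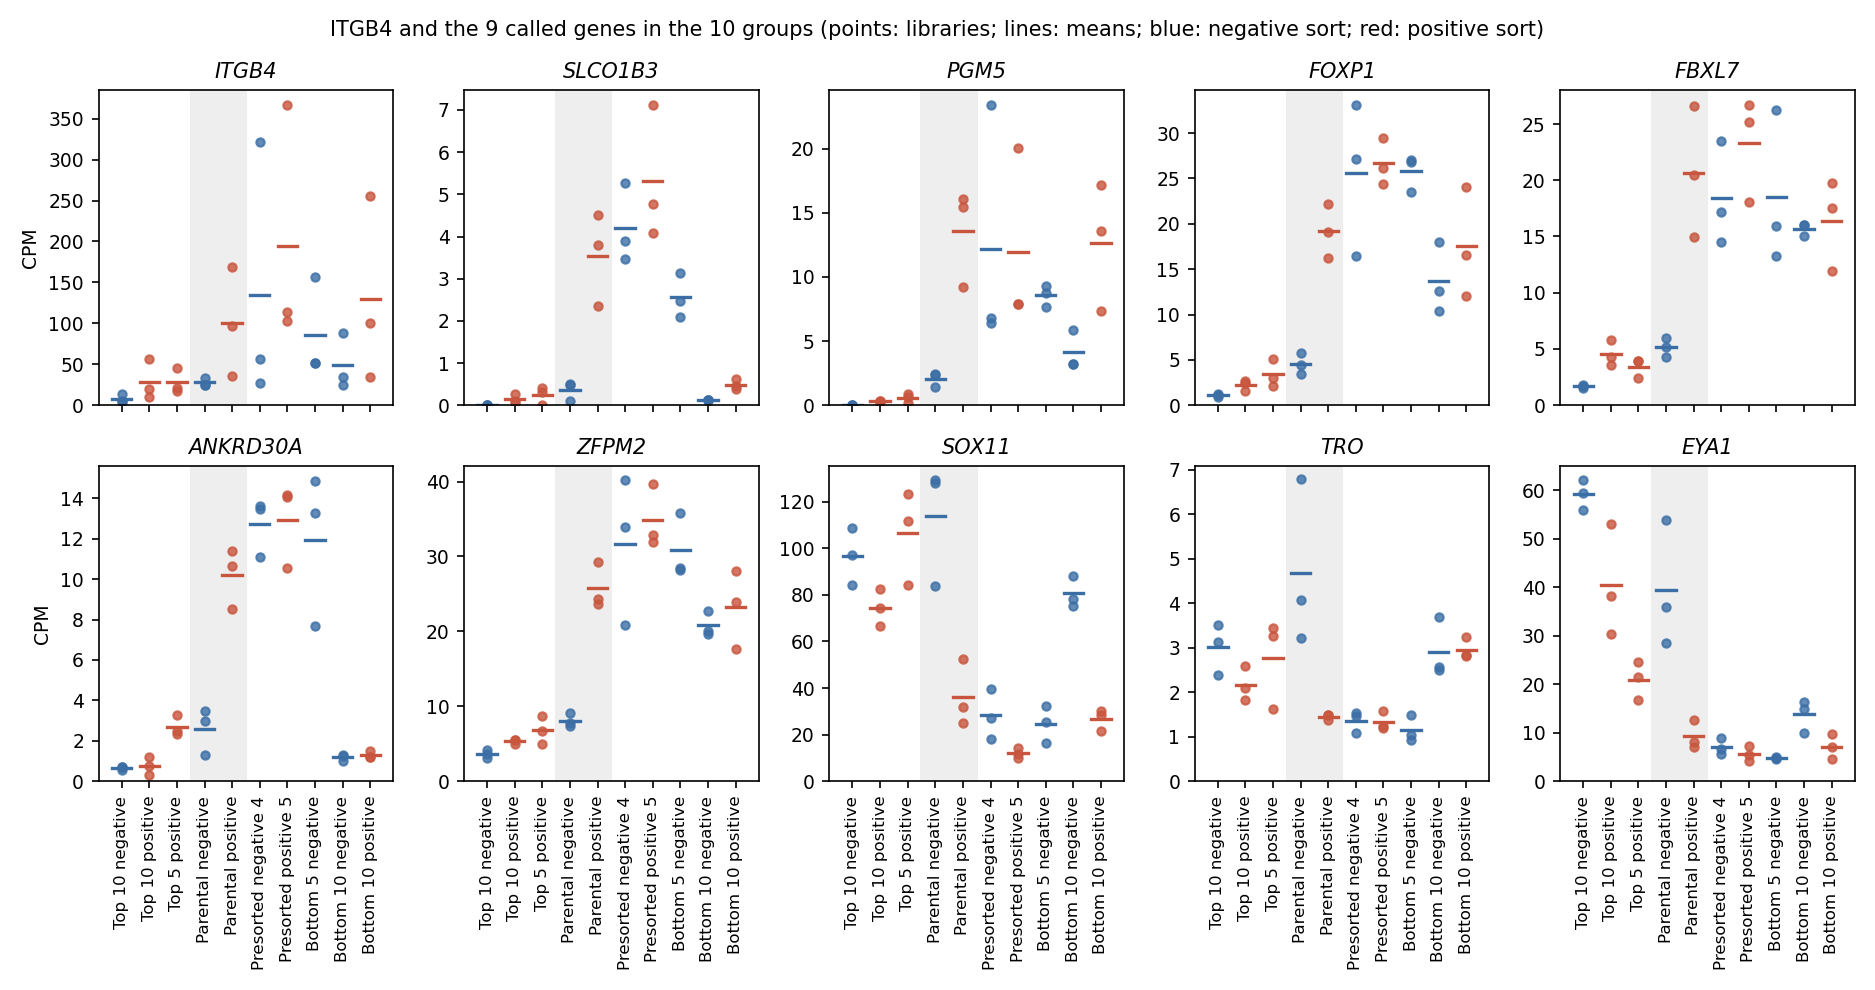
Level of ITGB4 and of the 9 called genes in the 10 groups, in CPM, with 1 point per library and the mean of 3 as a line (blue, negative sort; red, positive sort; grey band, the parental groups). FOXP1 averages 4.54 CPM in Parental negative and 19.2 CPM in Parental positive, 1.12 to 3.43 CPM in the groups that failed to cross and 13.6 to 26.7 CPM in those that crossed.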

How the data were processed

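The files deposited by the authors held raw counts of reads per gene symbol, 1 per library. Per the submitters' processing notes, STAR, HTSeq, DESeq and the build hg19 were used, with no version, strand setting or annotation given there. Reads assigned to no gene (24.07 to 26.53%) were left out. Genes were filtered with edgeR (minimum count 10, minimum total 15, leaving 15381 of 26364), scaled by TMM, then fitted in edgeR 4.0.16 in R 4.3.3 (quasi-likelihood, all 30 libraries in 10 groups, so that groups share 1 estimate of spread). P-values carry Benjamini-Hochberg adjustment over all genes at 0.05, and called, rose and fell refer to this. The SE is the log2 fold change divided by the square root of F. CPM values use TMM-scaled totals, and log levels a prior count of 2. DESeq2 1.42.0, RLE factors, library size alone, no filter, a replicate block, the parental libraries alone, a fit without 6 libraries apart on the second component of all 30, and leaving out each library were alternatives. The fit was tested on simulated data. Named were ITGB4, every called gene, the 10 largest uncalled changes each way (unadjusted p below 0.05, at least 5 CPM, no overlap), the 3 members of each of 41 lists with the smallest p and all hemidesmosome genes but 1, whose values are not reported here. Other genes are marked where named. The libraries and lists were chosen with earlier results of these data known. An exact permutation test of 3 against 3 samples cannot go below 0.1, so the model was used for levels. No parental library was a copy of another, and the libraries of the other groups were not checked for this.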

Additional observations from a re-analysis of the deposited data

How the results depend on the processing

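Between the parental sorts 9 genes were called, 6 higher and 3 lower. DESeq2 called 77 (33 and 44), the fit without the 6 libraries apart on the second component 25 (16 and 9), the parental libraries alone 1 (1 and 0) and with a replicate block 0 (0 and 0). With 1 library left out, 3 to 18 were called, 2 to 11 higher and 1 to 7 lower. RLE factors, library size alone and no filter gave 9, 10 and 11. For the difference between sorts, where 0 genes were called, DESeq2 called 1 for Top 10, 3 for Bottom 10 and 6 for the sorts that then migrated against parental, and the fit without the 6 libraries 1 for Top 10. Among the 6 parental libraries, correlations of same-numbered libraries across genes, each gene less its group mean, were -0.131, 0.271 and -0.448. Differently numbered pairs ran from -0.565 to 0.539. With 3 libraries a group and negative replicate 1 apart, these values cannot show whether the replicate numbers pair the samples. Pairing in the other groups was not tested. There, ITGB4 in replicates 1 to 3 was at 5.12, 13.3 and 3.72 CPM in Top 10 negative and 20.4, 56.5 and 9.84 CPM in Top 10 positive. Both Bottom 10 groups had this order too, and the sorts that then migrated did not share 1 order. A replicate block in the fit of all groups gave 27 calls (16 and 11), with all 9 among them. It turned the log2 fold change of CD14 to 0.0309. Other reversals came from leaving out 1 library, in genes that were not called: ITGA6 ran from -0.0435 to 0.18, LAMA3 from -0.61 to 0.36, DDIT3 from -2.17 to 0.0028, TRAF1 from -2.77 to 0.63, RPL29 from -0.33 to 0.0025, RPL4 from -0.36 to 0.0674, NDUFA9 from -0.0104 to 0.27, KDR from -0.49 to 1.08, LYZ from -0.69 to 0.17, CD68 from -0.0248 to 0.67 and CD14 from -0.62 to 0.37. Of the list medians, 9 moved by more than the spread between replicates without negative replicate 1. The causes were not tested. With 3 libraries a group and 14258919 to 29134945 counts each, genes of a few counts are imprecise.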

Other observations

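Negative replicate 1 correlated most with a library of the other sort: its r across genes was 0.968 with positive replicate 3, 0.962 with negative replicate 2 and 0.938 with negative replicate 3 (log2 CPM, a description of library pairs in which genes are not independent replicates). Negative replicate 1 and positive replicate 3 were also alike in HLA-DRA, at 422 and 273 CPM against 92.8 to 193 CPM in the other 4. In TRAF1, a signalling adaptor, they were at 156 and 54.1 CPM against 6.94 to 22.9 CPM. They were unlike in DDIT3, at 90.8 and 10.6 CPM, and in the mean log2 level of the S phase list, at 4.87 and 6.22.

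B3GAT1, which makes the sugar epitope HNK-1 of neural crest cells, was the one gene of the 77 called by DESeq2 with the parental sign and an unadjusted edgeR p below 0.05 in each of the 3 other sorts, and it was picked after its values were seen. In the parental sort it was at 21.5, 15.4 and 13.1 CPM in the negative and 7.399, 6.25 and 12.4 CPM in the positive libraries, with positive replicate 3 just below negative replicate 3. Its log2 fold change was -0.94 ± 0.25 there (edgeR adjusted p 0.249, DESeq2 0.0418), -0.54 ± 0.25 in the Top 10 sort, -0.63 ± 0.25 in the Bottom 10 sort and -0.64 ± 0.26 between the sorts that then migrated. None of these passed the adjusted edgeR test. PDZRN3, a ubiquitin ligase, and VAT1L had the parental sign at an unadjusted edgeR p below 0.05 in the Top 10 and Bottom 10 sorts. So did PGM5 and SLCO1B3, which averaged only 0.301 and 0.136 CPM in the Top 10 positive group. PDZRN3 was at 11.98, 13.02 and 14.8 CPM in the negative and 4.86, 4.71 and 6.79 CPM in the positive parental libraries, without overlap.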
